A study of Homo sapiens with 12 samples.

Results

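The long RNA of HEK293T cells that had received only control siRNA was described across genes. These are the 3 libraries whose column names mark control RNAi RNA sequencing, out of 6 long RNA libraries and 12 libraries in the whole series. The other long RNA libraries, and the 6 small RNA libraries, were not used, and nothing was compared with a knockdown. HEK293T is a human embryonic kidney line that carries adenovirus genes and the SV40 large T antigen. Every library came from cells given control siRNA at 50 nM with a lipid reagent, given it again 48 hours later and harvested 72 hours after that. The cells are labelled HEK293T, but the culture protocol says HEK293, the parental line, and the transfection protocol speaks of a microarray harvest. The labels do not say whether the replicates were separate cultures, so the spread described here may be technical. No untransfected cells were among these libraries, so the profile is that of transfected cells.

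A cultured, dividing cell spends much of its messenger RNA on making protein and on glycolysis. Beside messenger RNA it holds large amounts of short structural RNAs, such as 7SK, which holds back a transcription elongation factor, and 7SL, the RNA of the signal recognition particle. HEK293 cells were made from embryonic kidney cultures, and neuron-like and adrenal-like features of the line have been discussed, so the markers of these tissues are given separately. Levels are in CPM, the raw count of a name per 1e+06 counts in its library. CPM is not corrected for transcript length, and transcript lengths were not used here. CPM values of different genes are therefore shares of reads, and no gene is said to have more molecules than another. A name was counted as detected when it had at least 1 CPM in each of the 3 libraries.

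The promoters of 5 abundant mRNAs are shown first, because TATA boxes and CGGAAG motifs differed in frequency between the gene classes described later. Each is the 80 bases before the RefSeq start on GRCh38.p14, on the strand of the gene. Capitals mark TATAAA or TATATA, or CGGAAG on either strand. Elongation factor EEF1A1 is at chr6:73521033-73521112 (minus strand), elongation factor EEF2 at chr19:3985464-3985543 (minus), linker histone HIST1H1C at chr6:26056471-26056550 (minus), glycolytic GAPDH at chr12:6535184-6535263 (plus) and ribosomal protein RPS6 at chr9:19380237-19380316 (minus).
EEF1A1: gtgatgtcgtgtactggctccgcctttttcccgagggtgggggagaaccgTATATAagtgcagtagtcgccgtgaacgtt
EEF2: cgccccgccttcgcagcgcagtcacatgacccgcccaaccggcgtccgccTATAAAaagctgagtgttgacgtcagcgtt
HIST1H1C: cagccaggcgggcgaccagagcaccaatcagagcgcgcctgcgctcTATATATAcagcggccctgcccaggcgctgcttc
GAPDH: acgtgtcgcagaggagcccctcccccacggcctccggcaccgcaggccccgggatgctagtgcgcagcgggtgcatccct
RPS6: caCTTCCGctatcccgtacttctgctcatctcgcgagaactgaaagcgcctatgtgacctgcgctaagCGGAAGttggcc
The first base of the TATA motif lay at -30 in EEF1A1 and EEF2 and at -34 in HIST1H1C, counted back from the start. GAPDH had neither motif in these 80 bases, and RPS6 had CGGAAG on both strands.

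Replicates 1, 2 and 3 had totals of 34.5, 38.3 and 30.1 times 1e+06 counts. At these depths 3 counts, the limit that a count of 0 allows, stand for 0.0870, 0.0783 and 0.0997 CPM, and such limits and all intervals cover counting error only. Replicate 1 stood apart from the others. It had 15444 names at 1 CPM or more, against 14839 in replicate 2 and 14883 in replicate 3. The chi-square of the counts per degree of freedom was 21.1 between replicates 1 and 2, 22.7 between 1 and 3, and 12.9 between 2 and 3. SNORD3A and RNU4-2, described with the spread between libraries, had far fewer counts in replicate 1 than in either other library. Both names are part of the chi-square, so they are not a separate sign. The chi-square was not computed without them, so its gap between pairs may rest in large part on these 2 names. The median absolute log2 difference over detected names, which 2 names hardly move, set the pairs less far apart. It was 0.157 between replicates 1 and 2, 0.133 between 1 and 3 and 0.118 between 2 and 3. Results that rest on replicate 1 are therefore also given without it.

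Of 55765 names in the table, 29844 had a count in at least 1 library and 23233 had one in each. Detected names numbered 14460, which is 25.9% of all names, and they took 99.6% of the reads. Among them 10048 had at least 10 CPM in each library, 2050 at least 100 CPM and 45 at least 1000 CPM. The reads were concentrated in few names. The 5 names of highest mean CPM took 9.61% of reads and the highest 20 took 13.5%. The highest 151 names held 25% of reads, 1049 held 50% and 6451 held 90%. Of 19081 protein-coding names, 12286 were detected (64.4%) and 3076 had no count in any library.

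Structural RNAs and mRNAs of protein synthesis were among the names of highest CPM, with long noncoding RNAs, GAPDH, AMOT and PRKDC. RN7SK, the 7SK RNA, had 33326, 33331 and 37988 CPM in replicates 1 to 3, with a mean of 34882 ± 2690 CPM (SD, n = 3). That was 3.33% of reads in replicate 1 (exact binomial 95% interval 3.33% to 3.34%), 3.33% in replicate 2 (3.33% to 3.34%) and 3.80% in replicate 3 (3.79% to 3.81%), so replicate 3 lay outside the intervals of the other two. RN7SL1 and RN7SL2, near-identical genes of the 7SL RNA, had means of 25362 and 16374 CPM, and RN7SL3 had 2036. RPPH1, the RNA of ribonuclease P, which trims transfer RNA, had 9755 ± 1358 CPM, and RMRP, the related RNA of ribonuclease MRP, had 9680 ± 1238 CPM (SD, n = 3). RNU2-59P, a pseudogene name of the U2 spliceosomal RNA, had 4767 CPM, and its reads cannot be separated from those of other U2 copies.

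EEF1A1, which delivers aminoacyl transfer RNA to the ribosome, was the mRNA of highest CPM, with 4461, 5211 and 5187 CPM. EEF2, which moves the ribosome along the message, had 2439, 2562 and 2914 CPM, and GAPDH, a glycolytic enzyme, had 2046, 2394 and 2376 CPM. In all 3 of these mRNAs the lowest value was in replicate 1. The ribosomal protein mRNAs RPL4 and RPS6 had means of 1955 ± 174 and 1826 ± 159.5 CPM, and the chaperone HSPA8 had 1945 ± 171 CPM (SD, n = 3). GNB2L1, which encodes the ribosome-bound scaffold RACK1, had 1770 ± 121 CPM. AMOT, a junction protein that binds the YAP coactivator, had 1801, 1853 and 1757 CPM. The DNA repair kinase PRKDC had 1773, 1801 and 1777 CPM, and for both genes the 3 libraries lay close together. AMOT's relatives took smaller shares of reads, 182 ± 2.71 CPM for AMOTL1 and 17.2 ± 1.12 CPM for AMOTL2 (SD, n = 3). IRS4, an insulin receptor substrate first studied in HEK293 cells, had 1099, 1035 and 1058 CPM. AMOTL1, AMOTL2 and IRS4 were picked after their values were seen.

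Protein-coding names took 84.8%, 85.9% and 83.7% of reads in the 3 libraries, a mean of 84.8% ± 1.14 (SD, n = 3). Structural small RNAs, the 7SK, 7SL, RNase P and MRP, snRNA, snoRNA, Y RNA and vault RNA names together, took 11.4%, 10.9% and 13.3%. They were 3554 names of which 160 were detected, and their share was highest in replicate 3. The 7SL class alone took 4.39% ± 0.497 of reads, the 7SK class 3.49% ± 0.269 and the RNase P and MRP class 1.94% ± 0.248 (SD, n = 3). RN7SK itself held 99.9% of the 7SK class, and 6 of its 293 names were detected. The spliceosomal snRNA class took 1.06% ± 0.0742 and the snoRNA and Cajal body RNA class 0.902% ± 0.197 of reads. Without replicate 1 the latter was 0.979%.

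Long noncoding RNA names took 1.78%, 1.44% and 1.38% of reads, highest in replicate 1. The mean was 1.53% ± 0.216 (SD, n = 3), and 1.41% without replicate 1, with 375 of 1995 names detected. MALAT1, a nuclear speckle RNA, had 2555, 1974 and 1890 CPM. NEAT1, the scaffold of paraspeckles, had 708, 429 and 380 CPM, and KCNQ1OT1, an imprinted antisense RNA, had 422, 327 and 298 CPM. In these 3 nuclear RNAs replicate 1 was the highest library. The snoRNA host transcript SNHG3 had 1922, 1534 and 1744 CPM, and GAS5, another host, had 235, 224 and 207 CPM, so these also were highest in replicate 1 but by less. Reads of the snoRNAs within a host may be counted in it or dropped, and their part in the SNHG3 and GAS5 values was not tested. TERC, the RNA template of telomerase, had 108, 81.3 and 126 CPM. RNY1, a Y RNA bound by the Ro protein, had 605, 605 and 760 CPM.

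Clone-based names without a RefSeq match were the most numerous class, 22213 names, of which 1218 were detected with 0.966% ± 0.0993 of reads. Pseudogenes took 0.369% ± 0.0344, with 361 of 6442 names detected (SD, n = 3). Reads in pseudogene names can come from the parent gene. EEF1A1P5, for example, had 76.2 ± 4.24 CPM beside 4953 ± 426 CPM for EEF1A1 (SD, n = 3).

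The mitochondrial genome took 0.408%, 0.380% and 0.324% of reads, with 16 of its 37 names detected. The cytochrome c oxidase subunits MT-CO1, MT-CO3 and MT-CO2 had means of 1343, 1330 and 407 CPM. MT-RNR2, the large mitochondrial ribosomal RNA, had 275, 270.5 and 197 CPM. All 16 detected mitochondrial names were higher in replicate 1 than in the mean of the others, and the median log2 ratio was 0.38.

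**Figure D1:**
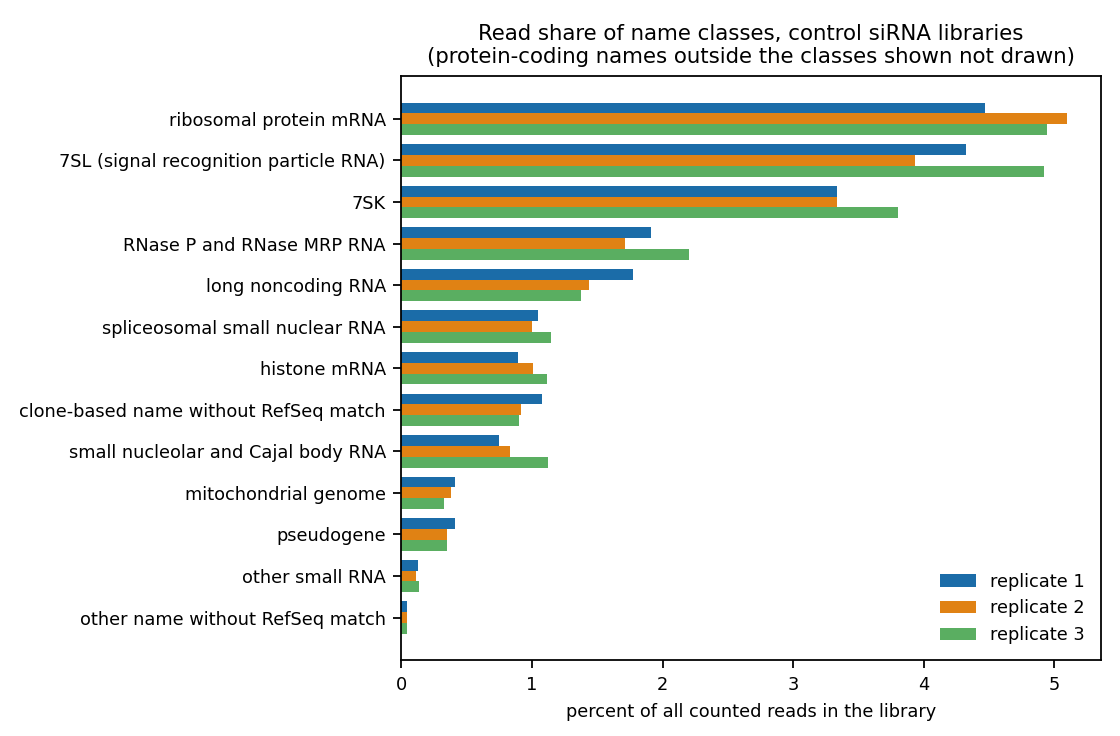
Percent of all counted reads (horizontal axis) taken by each class of names, with 1 bar per control siRNA library. Ribosomal protein mRNA and histone mRNA have their shortest bar in replicate 1, long noncoding RNA has its longest there, and the 7SK, 7SL and RNase P and MRP bars are longest in replicate 3.

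Ribosomal protein mRNA took 4.47%, 5.10% and 4.94% of reads, with a mean of 4.84% ± 0.33 (SD, n = 3) and 5.02% without replicate 1. All 78 listed cytosolic ribosomal protein genes were detected, with a median of 499 CPM, where the median over all detected names was 27.4 CPM. Translation factors took 1.55% of reads and 27 of 28 were detected, with a median of 327 CPM. EIF4B, a helicase cofactor of initiation, had 863 ± 60.0 CPM and EIF4G2, an initiation scaffold, 794 ± 39.8 CPM (SD, n = 3). The member that was not detected was EEF1G, a subunit of the exchange factor for EEF1A1, with 0.551, 0.705 and 0.731 CPM. EIF3C, a subunit of the large initiation factor, had 7.64 ± 0.627 CPM, and its near-identical neighbour EIF3CL 1.0 ± 0.264 CPM.

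Those low values were not typical of their complexes, and similar ones stood in other lists. SLC25A6, an adenine nucleotide translocase of the mitochondrial inner membrane, had 0 counts in each library beside 483 ± 44.3 CPM for SLC25A5. HSPA1A, a stress-inducible chaperone, had 0.725, 0.731 and 1.10 CPM beside 143, 158 and 148 CPM for its near-identical copy HSPA1B. Reads of near-identical copies may be assigned to one copy or dropped in counting, so the values of these genes are uncertain. The part that copies play in them was not tested.

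Glycolysis genes were all detected, 20 of 20, with a median of 303 CPM. ENO1, the main enolase, had 1768 ± 125 CPM, PKM, the pyruvate kinase of dividing tissues, 1278 ± 102 CPM and LDHA, which makes lactate, 983 ± 120 CPM (SD, n = 3). Chaperones were detected in 22 of 23, with a median of 342 CPM. HSP90AA1 had 1493, 1888 and 1617 CPM and HSP90AB1 1110, 1393 and 1290 CPM. HSPD1, a folding chaperone of mitochondria, had 767 ± 93.4 CPM (SD, n = 3). Replicate 1 was the lowest library for HSPA8, HSP90AA1, HSP90AB1 and HSPD1.

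The cell cycle list was detected in full, 30 of 30, with a median of 137 CPM. TOP2A, the topoisomerase of dividing cells, had 626, 700 and 661 CPM. The replication helicase subunits MCM7 and MCM4 had 547 ± 15.4 and 499 ± 28.4 CPM, and MKI67, the Ki-67 proliferation marker, had 523 ± 12.7 CPM (SD, n = 3). At the low end was the G1 cyclin CCND1, with 3.97, 3.99 and 3.99 CPM. Histone mRNA took 0.897%, 1.01% and 1.11% of reads, 46 of 72 names being detected. The linker histones HIST1H1C and HIST1H1E had means of 1456 ± 157 and 890.2 ± 100.1 CPM, and the core histone HIST1H3B had 604 ± 93.9 CPM (SD, n = 3). For each of these 3 histones replicate 1 was the lowest library and replicate 3 the highest.

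Of the tumour suppressors and oncogenes, 20 of the 22 names in the table were detected. CTNNB1, or beta-catenin, had 793, 812 and 843 CPM, and MDM2, a ubiquitin ligase, 250.4, 286 and 248 CPM. MDM4, its partner, had 169 ± 22.9 CPM and APC, which restrains beta-catenin, 159 ± 4.21 CPM. CDKN2A, a cell cycle inhibitor locus, had 61.9 ± 2.97 CPM. TERT, the protein subunit of telomerase, had 0.928, 1.12 and 1.5 CPM and was not counted as detected because of replicate 1. MYCN, a transcription factor of neural tumours, had 0.0970 ± 0.00901 CPM (SD, n = 3).

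Nucleic acid sensing was patchier. Of 30 genes 14 were detected, and the list's median was 1.16 CPM. EIF2AK2, the double-stranded RNA kinase PKR, had 128, 134 and 116 CPM, and the interferon receptor subunit IFNAR1 110, 96.5 and 94.5 CPM. The signal transducer STAT2 had 79.2 ± 11.9 CPM and the adaptor MAVS 58.2 ± 5.13 CPM (SD, n = 3). MB21D1, the DNA sensor cGAS, had 7, 0 and 6 counts and was not detected. TMEM173, the adaptor STING that acts after it, was detected and had 1.8, 1.85 and 1.83 CPM. TLR3, which senses double-stranded RNA in endosomes, had 0.376 ± 0.222 CPM, whereas TLR5, the flagellin receptor, was detected at 1.51 ± 0.437 CPM (SD, n = 3). TLR4, ZBP1 and AIM2 had no count in any library.

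Receptors and channels came next. Of 51 receptor tyrosine kinases 37 were detected, with a median of 13.7 CPM. IGF1R, the receptor of insulin-like growth factor, had 167 ± 16.7 CPM, MET, the hepatocyte growth factor receptor, 147 ± 3.52 CPM, PTK7, a Wnt pathway pseudokinase, 142 ± 14.7 CPM and the ephrin receptor EPHA7 135 ± 6.46 CPM (SD, n = 3). TIE1, ALK and MUSK, kinases of endothelium, nervous system and muscle, had no count. G protein-coupled receptors were detected in 42 of 81 and had no count in 10, with a median of 1.72 CPM. The highest were the adhesion receptors LPHN2, with 216 ± 10.9 CPM, CELSR2, with 99.7 ± 15.5 CPM, and CELSR3, with 90.2 ± 13.4 CPM, and the R-spondin receptor LGR4, with 81.4 ± 10.1 CPM (SD, n = 3). The muscarinic receptor CHRM3 had 1.39, 0.888 and 1.26 CPM and so missed detection in replicate 2, and the purinergic receptor P2RY1 had 16.2, 16.4 and 15.9 CPM.

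Of 78 ion channel genes 59 were detected, with a median of 7.39 CPM. The mitochondrial pores VDAC1 and VDAC2 had 232 ± 26 and 133 ± 8.62 CPM, the chloride transporter CLCN3 166 ± 8.35 CPM and the channel kinase TRPM7 139 ± 9.70 CPM (SD, n = 3). PIEZO1, a stretch-activated channel, had 108, 77.3 and 98.2 CPM, and LRRC8A, a subunit of the volume-regulated anion channel, 62.3, 52.9 and 62.3 CPM. CACNA1A, a neuronal calcium channel, and TRPC6 had no count. Of 30 virus entry receptors 24 were detected. The transferrin receptor TFRC had 296 ± 17 CPM, the complement regulator CD46 203 ± 14.4 CPM, dystroglycan DAG1 197 ± 15.5 CPM and the phosphate transporter SLC20A1 182 ± 12.3 CPM (SD, n = 3). The protease TMPRSS2, which cuts viral entry proteins, was below detection at 0.220 ± 0.0726 CPM. CD4, through which HIV enters, had no count. Of 48 nuclear receptors 35 were detected. The glucocorticoid receptor NR3C1 had 88.5 ± 2.34 CPM, the clock repressor NR1D2 84.9 ± 2.51 CPM and the orphan receptors NR2C1 and NR2C2 66.6 ± 7.75 and 55.4 ± 5.23 CPM (SD, n = 3). The estrogen receptor ESR1 had 1 count in all, in replicate 2, and NR0B1 had none. The 12 functional lists held 517 distinct names, of which 407 were detected (78.7%), beside 64.4% of protein-coding names. The lists were chosen with earlier results of these data known, so this share is a description only.

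**Figure D2:**
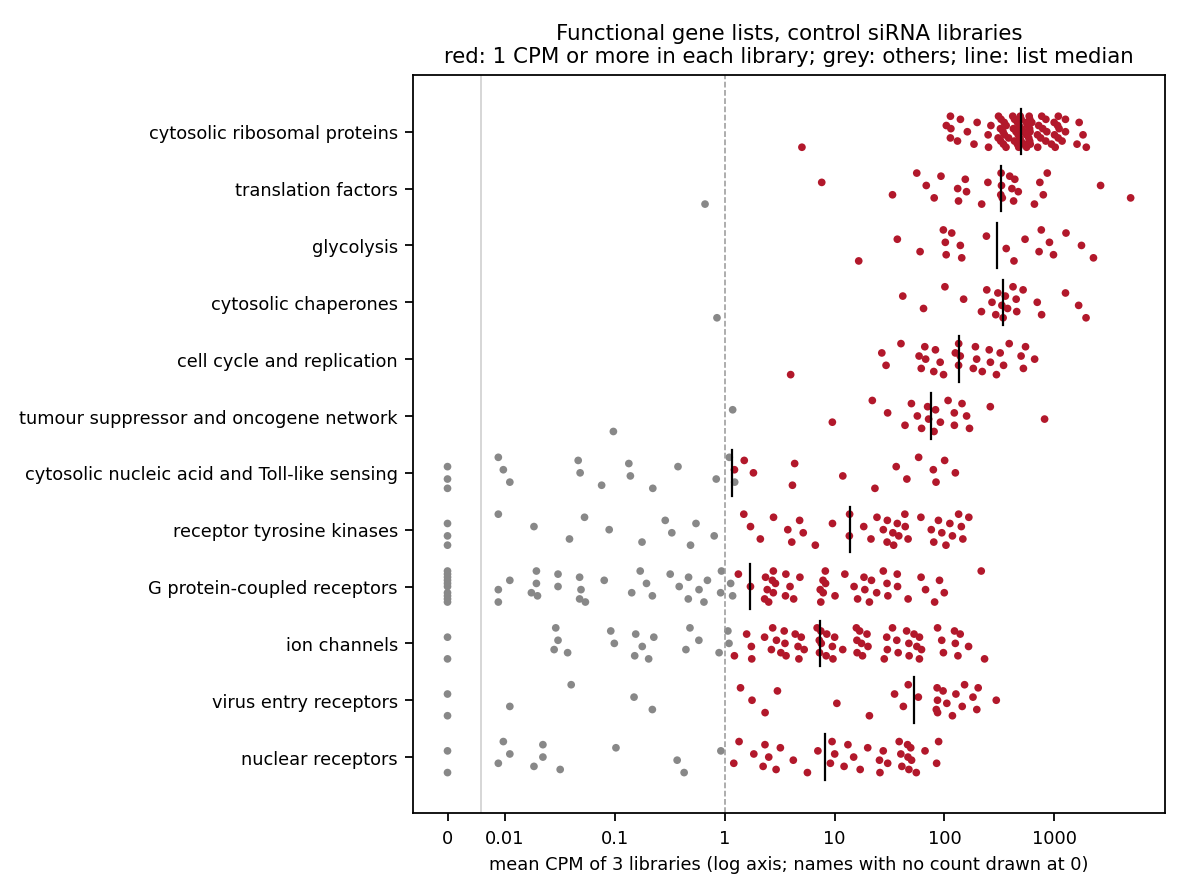
Mean CPM of 3 libraries on a log axis for each member of 12 functional lists, red where a name had at least 1 CPM in each library, grey otherwise, with names without a count at 0 and a line at the list median. Ribosomal proteins, translation factors, glycolysis and chaperones have medians from 303 to 499 CPM, and the sensing and G protein-coupled receptor lists have medians of 1.16 and 1.72 CPM.

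The label of the line was checked against tissue markers. In all, 61 of 197 names in 13 marker lists were detected (31.0%), beside 64.4% of protein-coding names, and the count was 61 without replicate 1 as well. Kidney progenitor and ureteric bud genes were detected in 12 of 18, with a median of 2.67 CPM. EYA1, a coactivator of early kidney mesenchyme, had 47.9, 49.4 and 46.9 CPM, the kidney-patterning homeobox gene HOXD11 41.0, 34.4 and 36.5 CPM and SALL1, of the nephron progenitor, 28.1, 27.8 and 27.0 CPM. Against these, the defining kidney regulators PAX2 and PAX8 were low or near 0. PAX2 had 1.16, 0.470 and 0.631 CPM, and PAX8 had 1, 0 and 2 counts. The label embryonic kidney was thus met by EYA1, HOXD11 and SALL1 and not by PAX2 or PAX8.

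Markers of the mature kidney were detected in 5 of 24, with a median of 0.0166 CPM. LRP2, the endocytic receptor megalin of the proximal tubule, had 147, 121 and 124 CPM, and PODXL, the podocyte surface protein podocalyxin, had 55.8, 49.3 and 49.1 CPM. AQP3, a water channel, had 3.84 ± 0.880 CPM and CUBN, the megalin partner cubilin, 3.80 ± 0.434 CPM (SD, n = 3). AQP2 (the collecting duct water channel), UMOD (uromodulin) and SLC22A8 had no count in any library. The list's total was 215.5, 181 and 183 CPM in the 3 libraries, of which LRP2 was the greater part.

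Neuronal genes were detected in 11 of 20 (55%, beside 64.4% of protein-coding names). The list's median was 2.19 CPM, and 2 names had no count, the neuronal RNA-binding gene ELAVL4 and the migration gene DCX. UCHL1, a ubiquitin hydrolase abundant in neurons, had 150.0, 165 and 161 CPM, the adhesion molecule NCAM1 76.8, 65.2 and 65.7 CPM and the neuronal enolase ENO2 62.0, 54.6 and 63.5 CPM. The neurofilament genes NEFL and NEFM had 35.6 ± 3.29 and 7.92 ± 0.730 CPM, and the synaptic vesicle gene SYT1 26.4 ± 1.32 CPM (SD, n = 3). MAP2, a dendrite marker, had 1.21 ± 0.0788 CPM. A further 7 names were counted but not detected. Among these were RBFOX3 with 3, 4 and 5 counts, SNAP25 with 4, 10 and 2, STMN2 with 2, 0 and 5 and ELAVL3 with 0, 4 and 0. The list's summed level was 411, 411 and 418 CPM, so the 3 libraries hardly differed. In the adrenal list, by contrast, 0 of 20 genes were detected and 11 had no count. Its highest member was CHGA, the secretory granule protein chromogranin A, with 0.667, 0.470 and 0.631 CPM, and its summed level was 2.18, 1.44 and 1.93 CPM. Among the names without a count were the steroid enzymes CYP11A1 and CYP11B1, and NR5A1, the regulator of steroid-producing cells, had 2, 7 and 2 counts.

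Mesenchymal genes were detected in 10 of 17. VIM, the intermediate filament vimentin, had 877, 897 and 939 CPM, the cadherin CDH2 194, 181 and 176 CPM, and the matrix protein FN1 177, 143 and 154 CPM. The transcription factors ZEB2 and ZEB1, which repress epithelial genes, had 54.2 ± 1.19 and 52.1 ± 3.57 CPM (SD, n = 3). Fibroblast genes were mixed. COL1A1 had 8.63 ± 1.30, COL3A1 5.80 ± 0.693 and PDGFRA 2.78 ± 0.167 CPM (SD, n = 3), while COL1A2, DCN and THY1 had no count. Another 4 names of the list were counted but not detected. Of 15 simple epithelial genes 5 were detected. The keratins KRT18 and KRT8 had 57.9 ± 2.26 and 17 ± 2.85 CPM, the splicing regulator ESRP2 14 ± 1.37 CPM and the epithelial cadherin CDH1 6.54 ± 0.374 CPM (SD, n = 3). KRT19 and CLDN3 had no count. Keratins of layered epithelium, KRT5, KRT14 and KRT6A, had no count either, and in that list CAV1, of caveolae, and ANXA1 were detected, with 16.5 ± 0.361 and 10.7 ± 1.10 CPM.

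Pluripotency genes were detected in 5 of 12. LIN28B, which blocks let-7 maturation, had 109, 132 and 102 CPM, and the DNA methyltransferase DNMT3B 35.1, 37.9 and 34.4 CPM. SOX2 had 5.86 ± 0.637 CPM and ESRRB 3.21 ± 0.143 CPM (SD, n = 3). The core factor POU5F1 had 0, 1 and 1 counts and NANOG 2, 4 and 3. DPPA4, ZFP42 and TDGF1 had none.

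Few markers of endothelium, blood and liver were detected. Endothelium was detected in 1 of 9 (ESAM, 2.32 ± 0.435 CPM), blood in 1 of 16 and liver in 1 of 12 (APOE, 13.8 ± 3.17 CPM; SD, n = 3). Their defining genes were at or near 0. PTPRC, the pan-leukocyte CD45 gene, had 1 count in all, albumin ALB 2, 2 and 1 counts, and the endothelial adhesion gene CDH5 3 counts, all in replicate 2. Muscle was detected in 3 of 13, namely the cardiac homeobox gene NKX2-5 with 11.4 ± 0.423 CPM, the embryonic myosin MYH3 with 5.73 ± 0.960 CPM and the cardiac troponin TNNI3 with 4.10 ± 0.713 CPM, while MYOG, MYF5 and TNNT2 had no count. Glial genes were detected in 5 of 10, led by the glutamate transporter SLC1A3 with 43.3 ± 2.90 CPM, and the glial regulator SOX10 had no count (SD, n = 3).

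**Figure D3:**
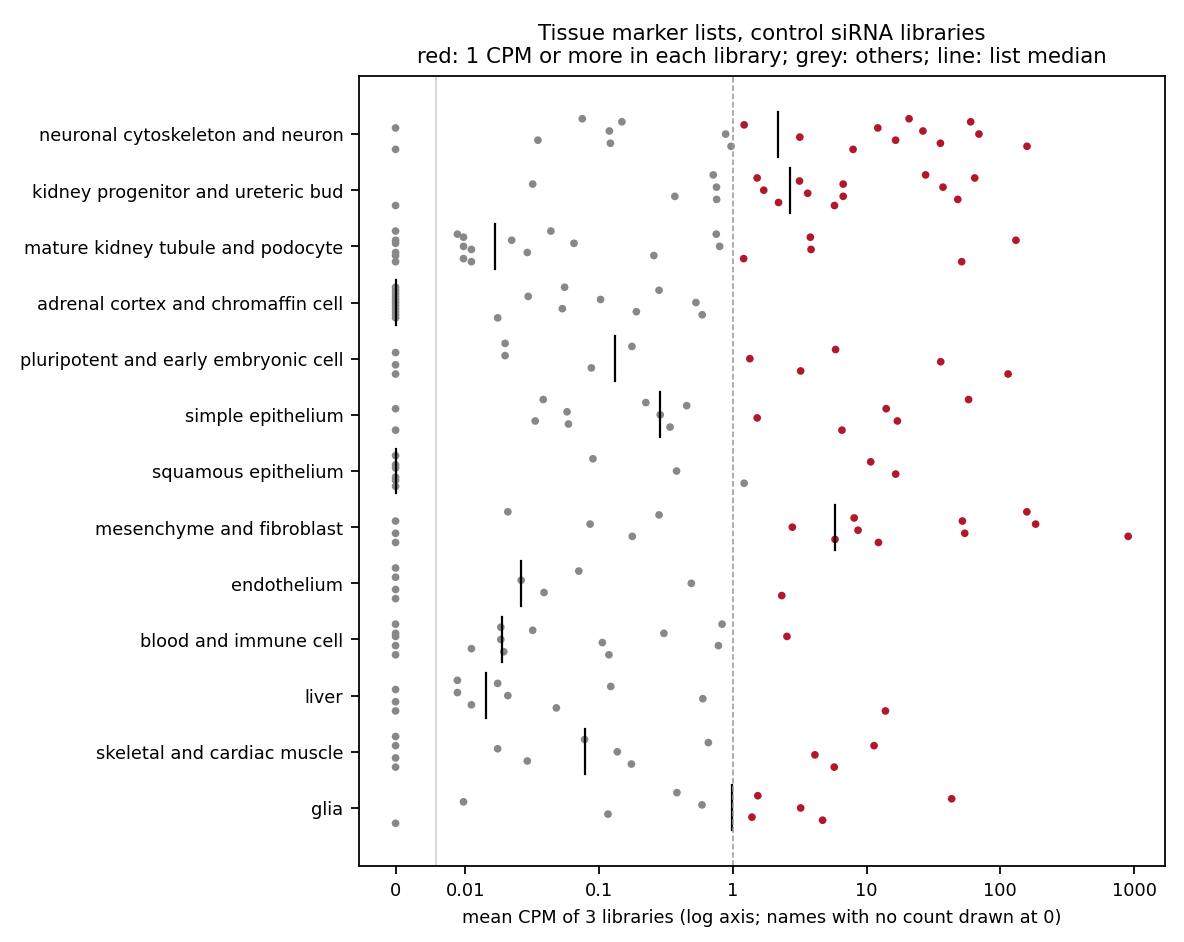
Mean CPM of 3 libraries on a log axis for each member of 13 tissue marker lists, red where a name had at least 1 CPM in each library, grey otherwise, with names without a count at 0 and a line at the list median. Neuronal, kidney progenitor and mesenchymal lists have medians above 1 CPM, and no adrenal marker reaches 1 CPM.

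Closely related genes often had 1 member that took most of a family's reads. In 36 families with 150 members, 108 members were detected and 17 had no count. The leading member took at least 90% of reads in 10 families, 50% to 90% in 16 and less than 50% in 10, with a median leading share of 67.4%. These are shares of reads, which also depend on transcript length. The same member led in all 3 libraries in 34 families, and the SD of a leading share was at most 2.59 percentage points.

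In metabolism and protein synthesis 1 paralog usually stood far ahead. ALDOA took 98.2% ± 0.163 of aldolase reads, ENO1 96.3% ± 0.501 of enolase and EEF1A1 98.7% ± 0.235 of elongation factor 1 alpha (SD, n = 3). The testis form PGK2 had no count, so PGK1 took 100% of phosphoglycerate kinase. CKB, the brain-type creatine kinase, took 93.3% ± 1.09, and the muscle forms CKM and CKMT2 had 0.0399% and 0 of the family. Lactate dehydrogenase and hexokinase were divided. LDHA took 57.3%, 58.5% and 56.2% and LDHB 42.5%, 41.4% and 43.6% of reads, while HK1 took 58.9%, 56.9% and 58.3% and HK2, the insulin-sensitive form, 40.9%, 43.0% and 41.6%. In initiation factor 4A, EIF4A2 took 71.1% ± 0.541, the exon junction member EIF4A3 23.3% ± 1.65 and EIF4A1 5.62% ± 1.13 (SD, n = 3). EIF4A1 overlaps small nucleolar RNA genes in the genome, so its value of 33.7 ± 6.60 CPM (SD, n = 3) is uncertain. Reads of overlapping genes may be counted in either gene or dropped in counting, which was not tested. The shares of the initiation factor 4A family are uncertain for the same reason.

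In the cytoskeleton, gamma-actin ACTG1 took 58.3%, 59.4% and 60.2% and beta-actin ACTB 41.0%, 39.9% and 39.2% of actin reads. The cardiac actin ACTC1 had no count. TUBA1B took 76.0% ± 0.482 of alpha-tubulin and TUBB 72.1% ± 0.519 of beta-tubulin reads, ahead of TUBB4B with 20.2% ± 0.293 (SD, n = 3). The neuronal TUBB3 took 0.644% ± 0.0546. Among the lamins of the nuclear envelope, LMNB2 took 48.0%, 44.4% and 47.1%, LMNB1 38.6%, 43.2% and 38.8% and LMNA, the lamin of differentiated cells, 13.4%, 12.4% and 14%. LMNB2 and LMNB1 were nearest to each other in replicate 2.

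Among growth regulators, CCND2 took 74.7% ± 0.716 of cyclin D reads, CCND3 22.0% ± 0.754 and CCND1 3.27% ± 0.206. The cyclin E pair was closer, with CCNE2 at 57.8% ± 0.150 and CCNE1 at 42.2% ± 0.150 (SD, n = 3). In the retinoblastoma family RBL2 took 40.7% ± 1.27, RB1 35.6% ± 1.5 and RBL1 23.7% ± 1.06. LIN28B took 99.8% ± 0.0346 of LIN28 reads, and IGF2BP1, an oncofetal RNA-binding protein, 61.6% ± 0.929 of its family (SD, n = 3).

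Developmental families were mixed. PAX6, a regulator of eye and brain, took 58.0%, 56.1% and 53.8% of PAX reads and PAX3, of neural crest and muscle, 32.1%, 33.8% and 35.3%, whereas the kidney members PAX2 and PAX8 took 0.965% ± 0.442 and 0.0420% ± 0.0450 (SD, n = 3). GATA6, GATA2 and GATA4 took 37.9% ± 2.31, 32.5% ± 2.03 and 23.4% ± 0.630, and the blood regulator GATA1 had no count (SD, n = 3). DNMT1, which maintains DNA methylation, took 84.1% ± 0.548 of methyltransferase reads.

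The leading member changed between libraries in the peroxiredoxins and the ERI exonucleases. PRDX2 took 24.1%, 23.6% and 25.3% and PRDX1 23.1%, 25% and 23.8% of peroxiredoxin reads, which did not differ beyond their spread. ERI2 had 55.4, 56.3 and 51.9 CPM, or 40.5%, 38.8% and 37.4% of its family. ERI3 had 53, 59.5 and 60.8 CPM, or 38.7%, 41.1% and 43.9%, and ERI1 had 28.4, 29.0 and 25.9 CPM, so ERI2 led in replicate 1 and ERI3 in replicates 2 and 3.

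**Figure D4:**
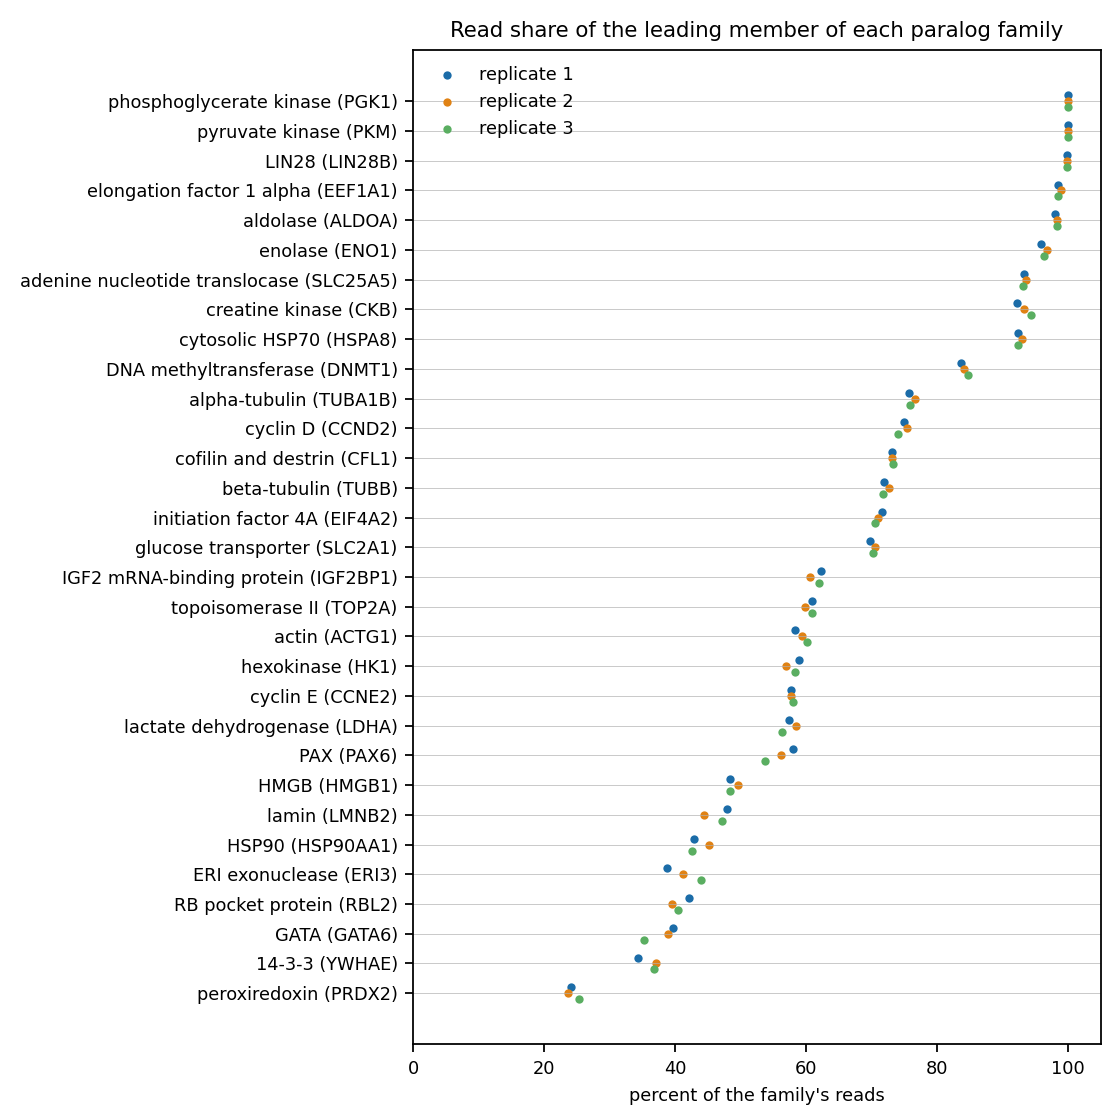
Percent of a family's reads (horizontal axis) taken by its leading member in each of 3 libraries, for 31 of the 36 paralog families. Mean leading shares run from 24.3% for PRDX2 to 100% for PGK1, and the 3 points of a family lie close together.

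Single names mostly differed little between libraries. Across detected names, which are not independent replicates, Pearson's r of log2 CPM was 0.993 between replicates 1 and 2, 0.994 between 1 and 3 and 0.995 between 2 and 3. Of 10277 names with a mean of at least 10 CPM, 98.4% lay within 1.5-fold between the highest and lowest library. The median coefficient of variation was 17% for names of 1 to 3 CPM, where counting alone would give 12.3%, and 5.90% for names of 100 to 1000 CPM, where counting would give 1.36%. The common biological coefficient of variation, from edgeR's dispersion estimate, was 9.05%, and 7.41% without replicate 1.

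Among names with a mean of at least 100 CPM, the 10 of lowest variation were SART3, EPB41L2, FAM168A, PRPF6, NAP1L4, DNAJA3, ZFYVE20, FYN, CTTN and KIF1B, with coefficients from 0.0670% to 0.551%. SART3, a recycling factor of spliceosomal snRNPs, had 109.5, 109.5 and 109.4 CPM. The splicing factor PRPF6 had 103, 103 and 102.5 CPM, and FYN, a Src family kinase, 126, 125 and 126 CPM. These are the smallest of 2221 values, chosen for being so, and counting alone would give a median of 1.36% for names of 100 to 1000 CPM.

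Only 12 names with a mean of at least 10 CPM differed more than 2-fold between libraries, and 9 of them were small noncoding RNA names. SNORD3A, a gene of the U3 snoRNA that guides ribosomal RNA cleavage, had 95.7, 2559 and 4940.5 CPM, from 3302, 98009 and 148706 counts. RNU4-2, a gene of the U4 spliceosomal RNA, had 79.4, 1401 and 1881 CPM. For both, replicate 1 lay far below the others. The summed U3 names had 118, 2579 and 4967 CPM, so the other U3 names together stayed far below SNORD3A in replicates 2 and 3. The summed U4 names had 848, 2045 and 2702 CPM, because RNU4-1 had 768, 644 and 821 CPM in the same libraries.

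U5 genes went the other way. RNU5B-1 had 954, 680 and 394 CPM and RNU5D-1 86.6, 72.0 and 20.5 CPM, both highest in replicate 1 and lowest in replicate 3, and the summed U5 names had 2461, 1845 and 1558 CPM. SNORA75, an H/ACA snoRNA, had 17.7, 11.2 and 8.67 CPM, in the same order as the U5 genes. Other small RNAs past 2-fold had another order. SNORA38 had 31.3, 19.1 and 41.3 CPM, SNORA71D 9.54, 7.49 and 15.9 CPM, and RNY4 11.9, 11.2 and 24.7 CPM, all highest in replicate 3. MIR663A had 107, 47.1 and 107 CPM, lowest in replicate 2. Of protein-coding names only MIF, a cytokine with a short mRNA, with 57.0, 34.4 and 85.7 CPM, and MAMDC4, with 20.3, 10.1 and 12.9 CPM, passed 2-fold, and the pseudogene name SSPO did so with 17.3, 7.94 and 10.5 CPM. Names of the ratio list in replicate 1 that stayed within 2-fold included COL7A1, NEAT1, ATG16L2, DNM1P51 and MST1 on the high side and POLR2J3, CCDC181, RAB32, NAP1L3 and TRNAI6 on the low side.

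Beyond single names, replicate 1 differed from the others by class. Over all detected names the median log2 ratio of replicate 1 to the mean of replicates 2 and 3 was 0.07, and 63.8% were above 0. It was -0.15 for ribosomal protein mRNA, where 6 of 92 were above 0, and -0.25 for histone mRNA, where 0 of 46 were. The median was 0.25 for long noncoding RNA, with 302 of 375 above 0, and 0.29 for clone-based names, with 993 of 1218 above 0. Among functional lists it was -0.18 for chaperones and -0.15 for glycolysis, and 0.21 for ion channels and 0.18 for receptor tyrosine kinases. Replicate 1 thus held fewer reads in abundant housekeeping mRNAs and more in long noncoding, unnamed and membrane protein names. Its cause was not tested.

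**Figure D5:**
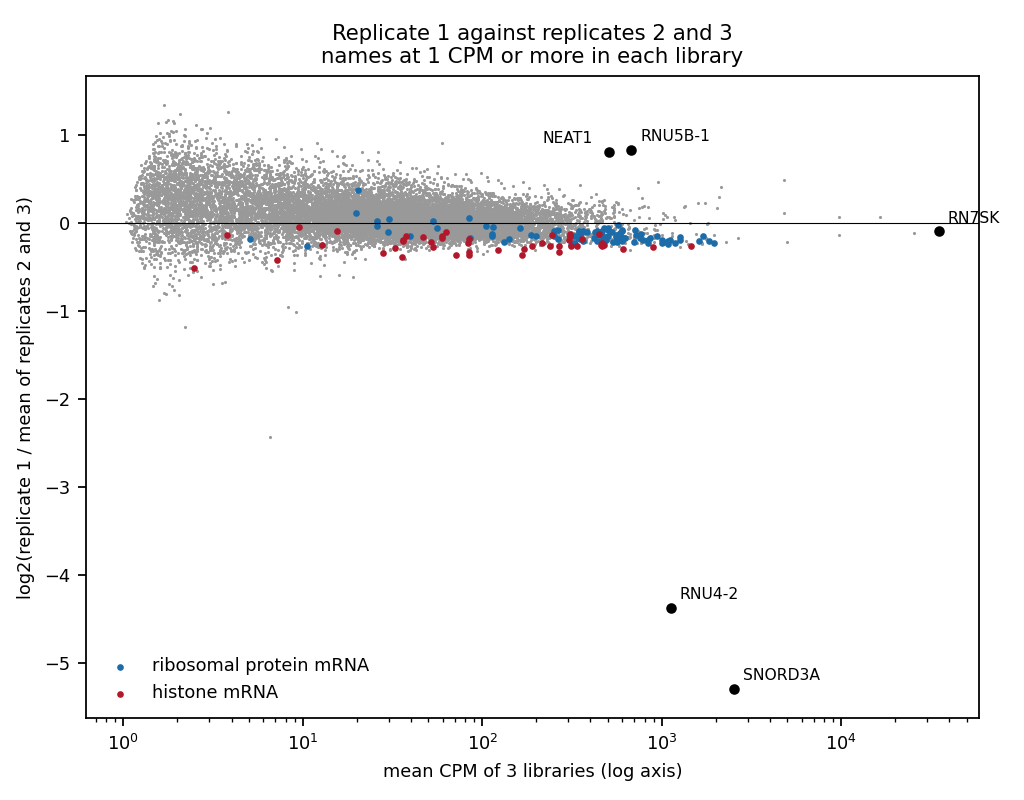
Log2 ratio of replicate 1 to the mean of replicates 2 and 3 (vertical axis) against mean CPM (log axis), 1 point per name detected in each library. SNORD3A lies at -5.29 and RNU4-2 at -4.37, and histone mRNA (red) and most ribosomal protein mRNA (blue) lie below 0.

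Sequence features of promoters were compared with level as a description. The window was the 250 bases before the RefSeq start, and motifs were searched on both strands. All RefSeq promoters numbered 27305, more than the 19081 coding names, so that set is not limited to coding genes. Values for all promoters are therefore not a matched background for the coding groups. TATAAA or TATATA was present in 71.8% of 39 promoters of detected histone genes, in 12.2% of 74 ribosomal protein promoters, in 8.12% of 1848 promoters of coding genes with a mean of 100 CPM or more and in 13.3% of all 27305 promoters in the table. CCAAT was present in 82.1% of the histone promoters and 31.1% of the ribosomal ones, beside 33.0% of all. CGGAAG, which resembles the core site of ETS factors, was in 52.7% of ribosomal protein promoters, 32.6% of those of genes at 100 CPM or more, 7.69% of histone promoters and 16.8% of all. GGGCGG, which is like a site of SP1, was in 70.2% of promoters of genes at 100 CPM or more and 42.3% of all. A match of one motif may share end bases with a match of another. The median GC content was 42.4% for histone, 60.8% for ribosomal protein and 65.2% for genes at 100 CPM or more, beside 58% for all. The 6389 promoters of coding genes detected with a mean of 10 to 100 CPM had GGGCGG in 69.9%, CGGAAG in 29.8% and CCAAT in 35.7%, with a median GC content of 65.6%, near the values at 100 CPM or more. TATAAA or TATATA was in 4.96% of them, a lower share. Motif shares move with GC content, and their part in level was not tested. The table held a promoter for 84.8% of the detected histone names, 80.4% of the ribosomal protein names, 83.4% of the names at 10 to 100 CPM and 85.2% of those at 100 CPM or more. For all coding names together it held 79.5%, and for those without a count 74.8%, below the 80% required, so no shares are given for those groups.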

How the data were processed

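The authors deposited raw read counts per gene name, whole numbers with different totals per library, of which the 3 control siRNA columns were used. Libraries were made from total RNA with a TruSeq RNA kit, per the labels' protocols. CASAVA 1.8.2, TopHat2 2.0.10, HTSeq 0.6.1p1 and hg19 are named without roles, per the submitters' processing notes. Which strand setting and annotation release applied was not given in the sources used here, so overlapping or antisense genes may share reads. Every column matched 1 sample, and 0 columns were left out for lack of one.

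CPM was computed as the count over the column total. Classes came from name patterns and RefSeq biotypes (GRCh38.p14): 30501 names matched by symbol, 2358 by synonym and 22906 not. Dispersion was estimated with edgeR 4.0.16 in R 4.3.3 with TMM library sizes, and the step was tested on simulated data. DESeq2 1.42.0 gave the RLE size factors of an alternative. Promoters came from RefSeq.

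The members and lists were chosen with earlier results of these data known. The named genes were the 20 of highest mean CPM, 4 of highest mean CPM and up to 4 without a count per list, all members of the families described, the 3 highest per class, and the extremes of the replicate 1 ratio and of variation; the rule asked for CPM per kb of coding sequence, but coding lengths were not used here, so CPM was used. Each was named as far as a result turned on it, clone names were left out, and 1 long noncoding name is counted in its class but not reported. Some other list and family members are counted in their totals and not reported here. No groups were compared, and no test was run. Alternatives were leaving out each library, other thresholds, TMM or RLE sizes, other totals and name-based classes.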

Additional observations from a re-analysis of the deposited data

How the results depend on the processing

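Detected names numbered 14460, and from 14513 to 14711 when 1 library was left out, 14516 with TMM sizes, 16076 at 0.5 CPM, 11453 at 5 CPM and 17492 at 10 counts in each library. Detected marker genes numbered 61, from 61 to 62 when 1 library was left out, and 38 at 5 CPM. At 5 CPM, 9 of 25 lists moved by more than 1.5-fold. The protein-coding share of 84.8% was 96.6% when mitochondrial and structural small RNA names were taken out of the total, as the smaller total alone makes it, and ranged from 84.2% to 85.4% when 1 library was left out. The median leading share of paralogs ranged from 67.2% to 67.6%. The common biological coefficient of variation was 9.05%; it ranged from 7.41% (without replicate 1) to 10.5% (without replicate 3), and was 8.75% without SNORD3A and RNU4-2, a setting chosen after seeing the data. The cause was not tested. Shares per kb of coding sequence were not run, since coding lengths were not used here. No paired analysis was possible because 1 group was described and the results come from no test. Names at or below 3 counts in a library, such as PAX8, POU5F1 and ALB, lie at or under the limit that a count of 0 allows, so their levels are uncertain at this depth.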
